A study of Mus musculus with 34 samples.

Results

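The Cyp2 family of cytochrome P450 genes was followed across 6 groups of mouse livers. Its members were taken by name: every protein-coding gene called Cyp2 with a subfamily letter and a number, with Cyp2e1 left out because it is usually treated on its own. That gave 48 genes of the 55487 gene identifiers in each expression table, and 35 of the 48 passed the filter on low values in both tables. The filter asked for more than 1 CPM (read counts scaled to the total of the library) in 5 or more libraries in the first table and in 6 or more in the second. The tested members were Cyp2a4, Cyp2a5, Cyp2a12 and Cyp2a22, then Cyp2b9, Cyp2b10 and Cyp2b13, then 13 of 15 Cyp2c genes, all 8 Cyp2d genes, Cyp2j5, Cyp2j6 and Cyp2j9, and Cyp2f2, Cyp2g1, Cyp2r1 and Cyp2u1. The 13 that did not pass were Cyp2ab1, Cyp2b19, Cyp2b23, Cyp2c65, Cyp2c66, Cyp2j7, Cyp2j8, Cyp2j11, Cyp2j12, Cyp2j13, Cyp2s1, Cyp2t4 and Cyp2w1; with library WT PBS 2 set apart, none of them exceeded 0.126 log2 CPM in any library.

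All mice were male and 3 months old, and polyA RNA of whole liver was sequenced. The first table (batch 1 in the labels) held wild-type livers after PBS (WT PBS, 6 libraries), wild-type livers 2 h after an intraperitoneal injection of tumour necrosis factor alpha (TNFa, 6 libraries), livers of PiZ mice given PBS (5 libraries) and livers of PiZ mice that also carried the p50-KO (-/-) genotype, given PBS (PiZ p50KO, 5 libraries). PiZ mice carry the human Z variant of alpha-1 antitrypsin, a secreted hepatocyte protein that polymerizes in the endoplasmic reticulum, and p50 is the NF-kB subunit encoded by Nfkb1. The second table (batch 2) held wild-type livers after DMSO (6 libraries) or 24 h after tunicamycin (6 libraries), an inhibitor of N-linked glycosylation that causes stress of the endoplasmic reticulum. Every comparison stayed within 1 table, and the tables were never compared by level. The labels give neither the strain, nor the promoter of the transgene, nor the tissues that lack p50. Nothing in them states that libraries of a group came from separate animals, so p-values measure the spread between these libraries.

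Cyp2 enzymes are heme proteins of the endoplasmic reticulum membrane that take electrons from P450 oxidoreductase (Por) and hydroxylate or epoxidize drugs, steroids and fatty acids. In hepatocytes many are switched on by the nuclear receptors CAR (Nr1i3) and PXR (Nr1i2), others depend on HNF4A and C/EBP factors, and several differ between male and female liver under control of growth hormone and STAT5. Several of the CAR-responsive Cyp2c genes and Cyp2a5 are expressed around the central vein, whereas Cyp2f2 is expressed around the portal tract. Inflammation is known to lower the expression of many of these genes.

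Most Cyp2c genes lie in a cluster on chromosome 19 and are close relatives, which bears on how reads can be assigned and on what their upstream sequences share. RefSeq (GRCm38.p6) gave the bases before the transcription start for 40 of the 48 members, 28 of them tested; Cyp2c54 was not among them. The last 120 bases before the start of 7 Cyp2c genes are shown, 5′ to 3′ on the strand of the gene, because these genes moved together or in opposite directions in the comparisons below. Capitals mark matches to an HNF4A motif (CAAAGTCCA) or a C/EBP motif (TTGCNNAA), searched on both strands of the 250 bases before the start.
Cyp2c37 (chr19:39992304-39992423, plus strand): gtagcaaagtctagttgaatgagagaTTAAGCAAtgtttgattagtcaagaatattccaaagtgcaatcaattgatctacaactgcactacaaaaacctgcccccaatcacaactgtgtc
Cyp2c50 (chr19:40089559-40089678, plus strand): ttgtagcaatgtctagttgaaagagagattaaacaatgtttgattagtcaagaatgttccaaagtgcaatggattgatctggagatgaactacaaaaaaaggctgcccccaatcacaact
Cyp2c38 (chr19:39463076-39463195, minus strand): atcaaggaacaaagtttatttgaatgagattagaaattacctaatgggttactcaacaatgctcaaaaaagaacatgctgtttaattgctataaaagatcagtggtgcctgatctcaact
Cyp2c39 (chr19:39510702-39510821, plus strand): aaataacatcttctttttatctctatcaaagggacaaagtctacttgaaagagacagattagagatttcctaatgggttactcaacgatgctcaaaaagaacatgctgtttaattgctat
Cyp2c40 (chr19:39812815-39812934, minus strand): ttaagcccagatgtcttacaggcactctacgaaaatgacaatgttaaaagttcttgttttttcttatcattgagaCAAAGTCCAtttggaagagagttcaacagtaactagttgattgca
Cyp2c68 (chr19:39741102-39741221, minus strand): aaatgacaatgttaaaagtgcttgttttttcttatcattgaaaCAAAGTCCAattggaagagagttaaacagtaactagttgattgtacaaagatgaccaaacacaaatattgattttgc
Cyp2c69 (chr19:39886770-39886889, minus strand): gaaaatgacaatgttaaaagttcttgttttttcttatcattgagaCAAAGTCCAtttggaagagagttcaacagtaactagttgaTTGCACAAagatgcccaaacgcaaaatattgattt

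Over the 250 bases, Cyp2c37 and Cyp2c50 were identical at 86.0% of positions after alignment, Cyp2c68 and Cyp2c69 at 92.8%, and the neighbours Cyp2c38 and Cyp2c39 at 79.2%. Each window ends at its annotated start and the share is of all 250 bases, so unlike annotated starts also lower it. The Cyp2c39 window ends short of a stretch that the Cyp2c38 window still holds. The Cyp2c40 window ends within the stretch marked for C/EBP in Cyp2c69. The HNF4A letters occurred before 5 of the 28 tested members with a sequence (17.9%), namely Cyp2c40, Cyp2c67, Cyp2c68, Cyp2c69 and Cyp2c70, against 0.384% of 32849 mouse promoters. The windows of Cyp2c40, Cyp2c68 and Cyp2c69 were identical to each other at 83.2% to 92.8% of positions, and that of Cyp2c67 to theirs at 63.2% to 75.2%. Matches in such close relatives cannot be counted as independent. The C/EBP letters occurred before 9 of 28 (32.1%), among them Cyp2a4, Cyp2a5, Cyp2b10, Cyp2c37 and Cyp2c69, against 9.56% of all promoters. Cyp2a4 and Cyp2a5 held the same match, from −70 and −71, as did Cyp2b9 and Cyp2b13, both from −180. Matches in these pairs of close relatives cannot be counted as independent either. For NF-kB a loose pattern was searched, which allowed any base between its fixed first and last parts. This pattern was matched before 3 of 28 (10.7%), Cyp2d9, Cyp2d11 and Cyp2j5, against 17.6% of all promoters. A match to it need not be an NF-kB consensus site. STAT5 letters (TTCNNNGAA, 7.02% of all promoters) and a pair of CAR/PXR half-sites (0.00913% of all promoters) were found before none of the 28. These matches describe the letters of this window only.

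The likeness also reaches the transcripts. Of the 50-base windows of the annotated transcripts, 60.3% in Cyp2c40, 54.3% in Cyp2c69, 52.8% in Cyp2c67, 43.3% in Cyp2c68 and 38.0% in Cyp2a4 were found in another gene as well, against 30.1% in Cyp2c37, 25.7% in Cyp2c54, 18.3% in Cyp2c50 and 12.0% in Cyp2c39. The read length is not given in the sources used here, so how far each value measures a single gene is uncertain, most so where the share is high. Cyp2d11 (37.2%), Cyp2a5 (37.0%) and Cyp2d10 (35.8%) were close to Cyp2a4.

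The libraries held 35.5 to 54.0 M reads in the first table and 34.3 to 47.8 M in the second, except WT PBS 2 with 10.2 M. Protein-coding genes took 72.2% of its reads, and 97.3% to 97.8% in each of the other 21 libraries, and Alb, the albumin gene of hepatocytes, stood at 12.2 log2 CPM against 15.4 to 16.5. The summed level of all Cyp2 members was 1122 CPM there against 13230 to 14970 CPM in the other WT PBS libraries, and 12 of the 13 members below the filter exceeded 1 CPM in it, up to 5.44 log2 CPM for Cyp2ab1. WT PBS 2 was therefore left out of the fits, and counts with it are given beside each comparison. Apart from it, 9 hepatocyte markers summed to 31700 to 144500 CPM in every library, and none was at 0. Nfkb1, the gene targeted in the p50KO mice, stood at 3.31, 3.74 and 3.37 log2 CPM in the libraries labelled PiZ p50KO 3, 4 and 5, below the 3.92 to 4.34 of WT PBS, but at 4.51 and 4.86 in those labelled PiZ p50KO 1 and 2, against 4.62 to 5.58 in PiZ. It is not known here which exons were deleted, so counts and called members of the p50KO comparisons are also given without these 2.

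Per length of exons, the most abundant members in WT PBS liver (n = 5 libraries) were Cyp2f2 at 847 ± 99.3 CPM per kb (SD), Cyp2d26 at 781 ± 87.0, Cyp2d10 at 666 ± 88.0, Cyp2c29 at 615 ± 47.5 and Cyp2d9, a testosterone hydroxylase of male liver, at 581 ± 108. Neighbours in this order differed by less than the larger of their SDs, apart from Cyp2d26 and Cyp2d10, whose means differed by more than either SD. Cyp2c50 reached 458 ± 65.4 CPM per kb, Cyp2c37 153 ± 28.1, and Cyp2c39 only 3.99 ± 0.527. Cyp2c39 was thus the lowest per length of the 13 tested Cyp2c genes in WT PBS.

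In PiZ liver the family was rearranged rather than shifted in 1 direction. Against WT PBS, 13 of the 35 tested members fell and 5 rose (limma on log2 CPM, adjusted p under 0.05 over all genes), where 6.19% of the 13285 tested genes fell and 45.6% rose. The falls lay mainly among the Cyp2c epoxygenases and hydroxylases (8 of 13 tested Cyp2c genes lower), while Cyp2a4, Cyp2a5, Cyp2a22, Cyp2b10 and Cyp2c39 rose. The median difference of the members was −0.225 log2 against 0.404 for all genes tested. Whether the shift of the median gene lies in scale or in composition was not tested. With every library set to the same median the split was 20 lower and 4 higher members (all genes 22.5% lower and 17.4% higher), Cyp2a22 no longer being called; with WT PBS 2 in the fit it was 2 lower, Cyp2c37 and Cyp2c50, and 5 higher (all genes 2.22% and 15.1%).

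**Figure D1:**
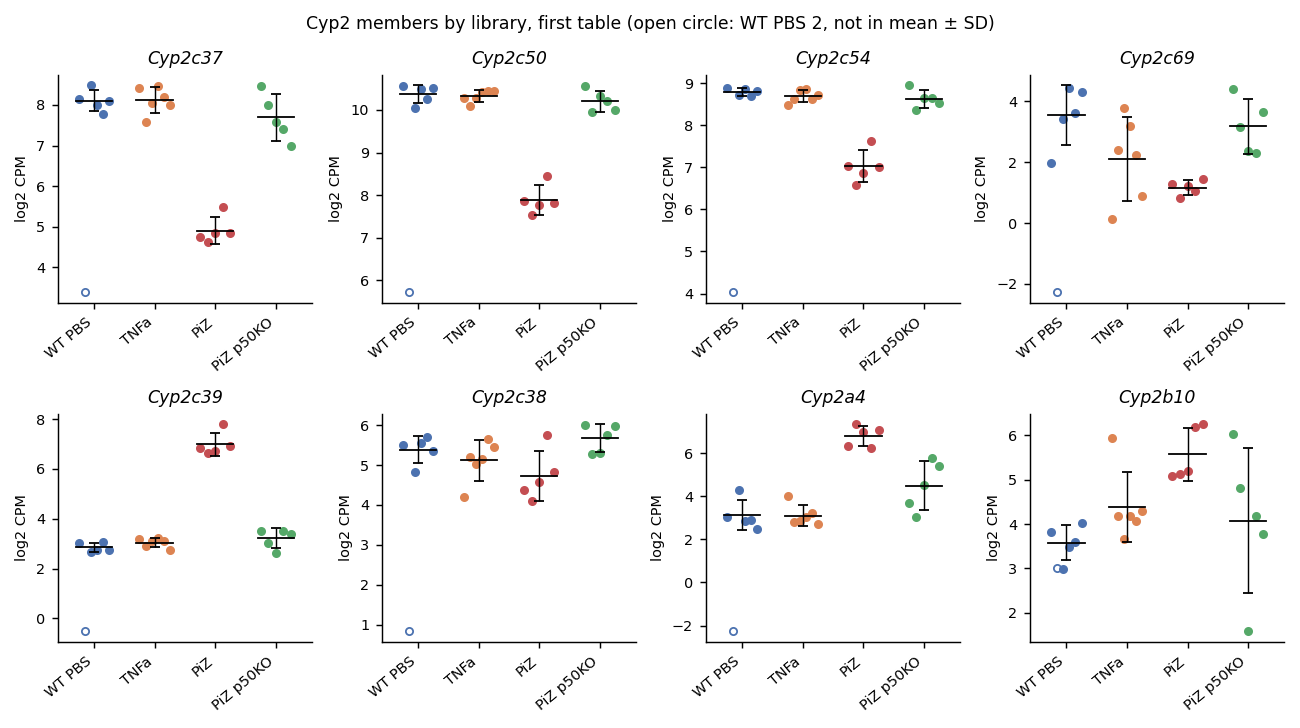
Log2 CPM (vertical axis) of 8 Cyp2 members in each library of the first table, by group; black lines are means with SD over the libraries other than WT PBS 2, which is the open circle. Cyp2c37, Cyp2c50 and Cyp2c54 are lower and Cyp2c39 and Cyp2a4 higher in all 5 PiZ libraries than in the 5 WT PBS libraries and the TNFa libraries, while Cyp2c39 in PiZ p50KO lies between 2.62 and 3.52.

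Cyp2c39, an enzyme known to hydroxylate retinoic acid, rose most. It was at 3.04, 2.67, 2.73, 3.07 and 2.75 log2 CPM in the WT PBS libraries and at 6.85, 6.65, 6.73, 7.80 and 6.92 in the PiZ libraries. The groups lie far apart, with PiZ 4 the highest, and the difference was 4.14 ± 0.20 (SE), a 17.6-fold rise (adjusted p = 4.44e-12). Its neighbour Cyp2c38 (chr19:39389556-39463075 against chr19:39510862-39568529 for Cyp2c39), whose upstream sequence is shown above, did not follow. Its difference was −0.66 ± 0.28, with adjusted p = 0.0502, and PiZ 4 stood at 5.75 log2 CPM against 4.09 to 4.84 in the other PiZ libraries. Cyp2c38 was called lower with equal medians (−1.15, limma adjusted p = 0.00614) and by limma-voom (adjusted p = 0.0443). With WT PBS 2 in the fit it was at 0.10 (limma adjusted p = 0.951).

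Cyp2a4, a testosterone hydroxylase known for its female-biased expression, was at 3.05, 4.29, 2.86, 2.91 and 2.50 log2 CPM in WT PBS and at 6.34, 7.34, 6.98, 6.24 and 7.07 in PiZ. All PiZ libraries exceeded all WT PBS libraries, by 3.67 ± 0.42 on average (12.8-fold, adjusted p = 8.15e-07). Cyp2a5, the coumarin 7-hydroxylase, shares many windows with Cyp2a4 and rose by 1.79 ± 0.43 (adjusted p = 0.0017). Cyp2b10, the classical target of CAR, was at 3.82, 3.00, 3.49, 3.59 and 4.03 log2 CPM in WT PBS and at 5.08, 5.13, 5.21, 6.20 and 6.25 in PiZ. Here too the groups did not overlap, and the rise was 1.99 ± 0.55 (3.97-fold, adjusted p = 0.00502). Cyp2a22 rose by 0.52 ± 0.15, with overlap, against 0.404 for the median gene, and Cyp2a12 (0.07 ± 0.09), Cyp2b9 (0.93 ± 1.03) and Cyp2b13 (0.77 ± 1.11) were not called.

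Cyp2c37 fell most. It was at 8.14, 8.49, 8.0, 7.79 and 8.10 log2 CPM in WT PBS and at 4.75, 4.62, 4.84, 5.48 and 4.84 in PiZ, a fall of 3.20 ± 0.23 on the log2 scale (9.19-fold, adjusted p = 2.9e-09). Cyp2c50 went from 10.56, 10.04, 10.49, 10.26 and 10.51 to 7.87, 7.52, 7.78, 8.46 and 7.81, and Cyp2c54 from 8.90, 8.72, 8.85, 8.69 and 8.81 to 7.03, 6.59, 6.87, 7.62 and 7.01. Like Cyp2c37, both make epoxides and alcohols from arachidonic acid and respond to CAR, and neither overlapped between the groups. Cyp2c50 fell by 2.48 ± 0.15 (adjusted p = 3.51e-10) and Cyp2c54 by 1.77 ± 0.14 (adjusted p = 1.52e-08). In these 3 genes PiZ 4 was the highest of the PiZ libraries.

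Cyp2c69 was at 1.96, 3.43, 4.44, 3.63 and 4.32 log2 CPM in WT PBS and at 1.29, 0.81, 1.21, 1.05 and 1.46 in PiZ. The WT PBS libraries spread widely, yet all exceeded PiZ, and the fall was 2.39 ± 0.57 (5.25-fold, adjusted p = 0.00159). Of the other genes with the HNF4A letters, Cyp2c68 fell by 1.68 ± 0.26 and Cyp2c40 by 1.25 ± 0.41, whereas Cyp2c67 (−0.62 ± 0.34) and Cyp2c70 (0.52 ± 0.24), an enzyme of muricholic acid synthesis, were not called. The abundant Cyp2c29 fell by 0.81 ± 0.16 and the epoxygenase Cyp2c23 fell by 0.55 ± 0.18, while Cyp2c55 was at 0.09 ± 0.36.

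Outside the Cyp2c genes no fall exceeded that of Cyp2u1. Cyp2d40 fell by 1.06 ± 0.26, Cyp2d22, the mouse gene usually set beside human CYP2D6, by 0.61 ± 0.14, and Cyp2d26 by 0.59 ± 0.12. The epoxygenase Cyp2j5 fell by 0.53 ± 0.14 and the fatty acid hydroxylase Cyp2u1 by 1.09 ± 0.41, the latter call being lost in 6 of the 10 fits that left out 1 library (adjusted p up to 0.0644). In every Cyp2d gene PiZ 4 was the lowest PiZ library, with Cyp2d9 at 9.75 log2 CPM against 10.47 to 10.60 in the others. WT PBS 4 was the lowest of the fitted WT PBS libraries in every Cyp2d gene. Cyp2d9, Cyp2d10, Cyp2d11, Cyp2d12 and Cyp2d34 had differences between −0.37 and −0.14 and were not called. Neither were Cyp2f2 (−0.32 ± 0.14), Cyp2g1 (0.72 ± 0.57), Cyp2j6 (0.41 ± 0.18), Cyp2j9 (−0.09 ± 0.24) or Cyp2r1 (0.23 ± 0.14), the vitamin D 25-hydroxylase. With equal medians Cyp2d9, Cyp2d10, Cyp2d34 and Cyp2f2 were called lower (limma adjusted p 1.82e-05 to 0.00991). Cyp2e1, which was not counted as a member, fell by 1.36 ± 0.15 (adjusted p = 6.11e-07).

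Grouped by what is known of them, 4 of the 5 members expressed around the central vein fell and Cyp2a5 rose, and of the 7 female-biased members 2 rose (Cyp2a4, Cyp2b10) and 2 fell (Cyp2c40, Cyp2c69). Of the 7 members inducible through CAR or PXR, 2 rose (Cyp2a5, Cyp2b10) and 4 fell (Cyp2c29, Cyp2c37, Cyp2c50, Cyp2c54), beside 45.6% and 6.19% of all genes. Nr1i3, which encodes CAR, fell by 1.13 ± 0.28 (adjusted p = 0.00234). Among 21 regulators 3 fell, Nr1i3 with Tef (−1.25 ± 0.50) and Hlf (−0.90 ± 0.20), factors of the circadian PAR bZIP family, and 2 rose. Of 6 partners in electron transfer 3 fell, Pgrmc2 (−0.38 ± 0.12) and Cyb5b (−0.38 ± 0.11) among them, and Pgrmc1 rose (0.35 ± 0.12). Of 11 genes of heme metabolism 3 rose, Hmox1, the heme oxygenase, by 1.53 ± 0.49, Blvrb by 0.96 ± 0.25 and Cpox by 0.63 ± 0.12, a smaller share than the 45.6% of all genes. In the growth hormone list Stat5a rose by 0.93 ± 0.34 and the receptor gene Ghr fell by 0.42 ± 0.08 of 5 tested. Of 21 tested P450 genes of other families 3 rose, led by Cyp1b1 (2.93 ± 0.47), and 4 fell, led by Cyp4a10 (−1.84 ± 0.72) and Cyp4a32 (−1.55 ± 0.37). With equal medians the falls in these lists held, but of the rises only that of Cyp1b1 did: Pgrmc1 turned to −0.137 (adjusted p = 0.281), and Hmox1 (0.0788), Blvrb (0.0639), Cpox (0.304) and Stat5a (0.299) no longer passed.

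Summed over members, Cyp2c transcripts made up 6001 ± 471 CPM (SD, n = 5) in WT PBS and 3431 ± 528 (n = 5) in PiZ with no overlap (5603 to 6576 against 2837 to 4205). Cyp2a transcripts were at 1113 ± 155 against 2056 ± 331 CPM, again without overlap, and Cyp2d transcripts at 4448 ± 625 against 3496 ± 593 CPM, with overlap. All members together were at 14050 ± 670 against 11010 ± 557 CPM. In bulk liver, fewer hepatocytes and less RNA per hepatocyte cannot be told apart. The 9 hepatocyte markers measured summed to 89650 to 116100 CPM in PiZ and 98330 to 129900 in WT PBS, which overlap, with 3 lower and 1 higher. Markers of other cells were higher in PiZ, with none at 0 in a whole group: 9 of 10 macrophage markers rose (summed level 625 to 919 CPM against 189 to 224), 8 of 8 stellate cell and fibroblast markers (644 to 1029 against 144 to 191) 4 of 5 tested cholangiocyte markers (82.9 to 126 against 23.4 to 27.0) and 5 of 6 endothelial markers (229 to 287 against 161 to 203). None of 5 tested neutrophil markers was called (6.92 to 30.5 against 2.56 to 20.8), nor was the 1 tested lymphocyte marker, though the 9 lymphocyte markers summed to 4.34 to 6.03 against 1.37 to 3.41 CPM. Their part in the Cyp2 differences was not tested.

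**Figure D2:**
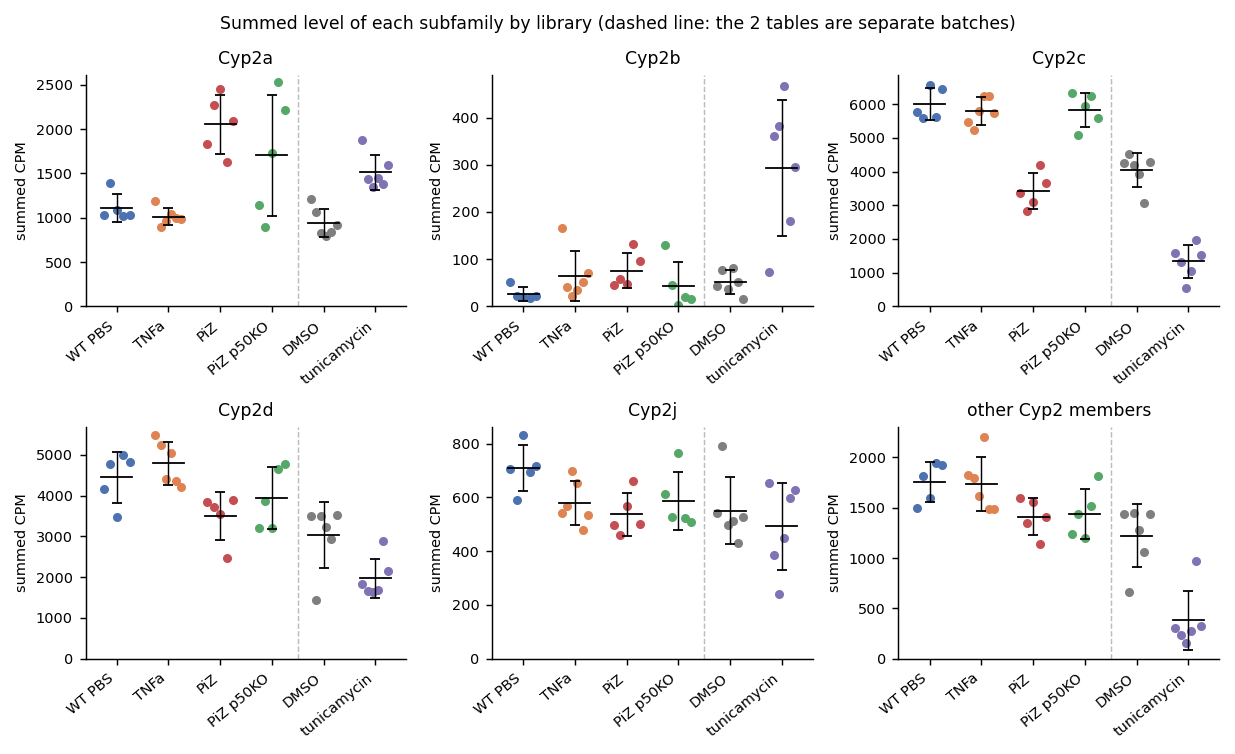
Summed CPM (vertical axis, from 0) of the members of each subfamily in each library; points are libraries, black lines means with SD, and WT PBS 2 is not drawn. Cyp2c sums are lower in PiZ than in WT PBS and in tunicamycin than in DMSO without overlap, and Cyp2a sums are higher in PiZ than in WT PBS.

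In the livers labelled PiZ p50KO, Cyp2c37, Cyp2c50 and other Cyp2c genes were higher than in PiZ, and Cyp2c39 and Cyp2a4 lower. Against PiZ, 10 of 35 members rose and 4 fell, where 3.36% of all tested genes rose and 21.6% fell; the medians were 0.072 for members and −0.220 for all genes. Both comparisons use the PiZ libraries. With equal medians 2 fell, Cyp2a4 and Cyp2c39, and 10 rose (all genes 9.11% and 9.84%), and with WT PBS 2 in the fit 1 fell, Cyp2c39, and 2 rose, Cyp2c37 and Cyp2c50 (2.96% and 0.512%). Without the libraries labelled PiZ p50KO 1 and 2 there were 5 falls and 6 rises (9.57% and 1.57%).

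Cyp2c39 was at 3.52, 3.05, 2.62, 3.52 and 3.41 log2 CPM in the PiZ p50KO libraries 1 to 5, all below the 6.65 to 7.80 of PiZ, and fell by 3.76 ± 0.20 (13.6-fold, adjusted p = 4.21e-11). Cyp2c37 was at 8.48, 8.0, 7.58, 7.42 and 6.98 and rose by 2.79 ± 0.23 (adjusted p = 5.04e-08). Cyp2c50 was at 10.56, 9.95, 10.32, 10.22 and 9.99 and rose by 2.32 ± 0.15 (adjusted p = 1.63e-09). For these 3 genes no p50KO library, 1 and 2 included, fell into the PiZ range. Cyp2c69 was at 4.43, 3.17, 2.37, 2.30 and 3.65 and rose by 2.02 ± 0.57 (adjusted p = 0.0136), but without libraries 1 and 2 its difference was 1.61 with adjusted p = 0.121.

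Cyp2a4 was at 3.67, 3.05, 4.51, 5.78 and 5.39 log2 CPM, below all PiZ libraries, and fell by 2.31 ± 0.42 (4.96-fold, adjusted p = 0.000566). Cyp2j6, at 5.89, 5.44, 6.37, 6.01 and 5.92 against 6.43, 6.46, 6.66, 6.52 and 6.38 in PiZ, fell by 0.56 ± 0.18 (adjusted p = 0.0271). Cyp2a22, at 4.66, 4.20, 3.76, 4.30 and 4.47 against 4.93, 4.95, 4.86, 4.44 and 4.71, fell by 0.50 ± 0.15 (adjusted p = 0.0166). Cyp2j6 did not overlap between the groups and Cyp2a22 did, and the Cyp2j6 call was lost without libraries 1 and 2 (adjusted p = 0.213). The other rises were 1.61 ± 0.14 in Cyp2c54, 1.32 ± 0.26 in Cyp2c68, 1.10 ± 0.16 in Cyp2c29, 1.06 ± 0.26 in Cyp2d40, 0.95 ± 0.28 in Cyp2c38, 0.40 ± 0.12 in Cyp2d26 and 0.38 ± 0.14 in Cyp2d22. Of these, the calls of Cyp2c38, Cyp2d22, Cyp2d26 and Cyp2d40 were lost without libraries 1 and 2, at 0.96 (adjusted p = 0.0627), 0.32 (0.227), 0.29 (0.148) and 0.93 (0.0548); the Cyp2d22 call was also lost in 8 of 10 fits that left out 1 library. Without libraries 1 and 2 the fall of Cyp2a4 was smaller (−1.57, adjusted p = 0.0104). The other calls held, at −3.81 for Cyp2c39, −0.60 for Cyp2a22, 2.42 for Cyp2c37, 2.29 for Cyp2c50, 1.59 for Cyp2c54, 1.36 for Cyp2c68 and 1.14 for Cyp2c29 (adjusted p 1.62e-09 to 0.0192).

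The 5 libraries labelled PiZ p50KO disagreed in several members. Cyp2a4 and Cyp2c37 already showed it, with libraries 1 and 2 below the other 3 for Cyp2a4 and above them for Cyp2c37. Cyp2b9, a female-predominant gene, was at 5.95 and 3.92 log2 CPM in libraries 1 and 2 and at −0.18, −1.03 and −0.47 in libraries 3 to 5, against 3.44 to 5.79 in PiZ. Cyp2u1 was at 4.52 and 5.62 against 3.07, 2.88 and 2.81, Cyp2a5 at 8.66 and 7.91 against 10.01, 10.83 and 10.44, and Cyp2c55 at 4.04 and 2.87 against 4.50, 5.76 and 5.07. In these 4 genes too the 2 libraries with the higher Nfkb1 level lay apart from the other 3. Over all 5 libraries the difference of Cyp2b9 from PiZ was −2.64 ± 1.03 (adjusted p = 0.0645), and that of Cyp2b10 −1.50 ± 0.55 (adjusted p = 0.052). Without libraries 1 and 2, Cyp2b9 differed from PiZ by −4.84 (adjusted p = 0.00019), Cyp2b10 by −2.39 (adjusted p = 0.00492) and Cyp2c55 by 1.36 (adjusted p = 0.0033), which made these 3 additional calls.

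**Figure D3:**
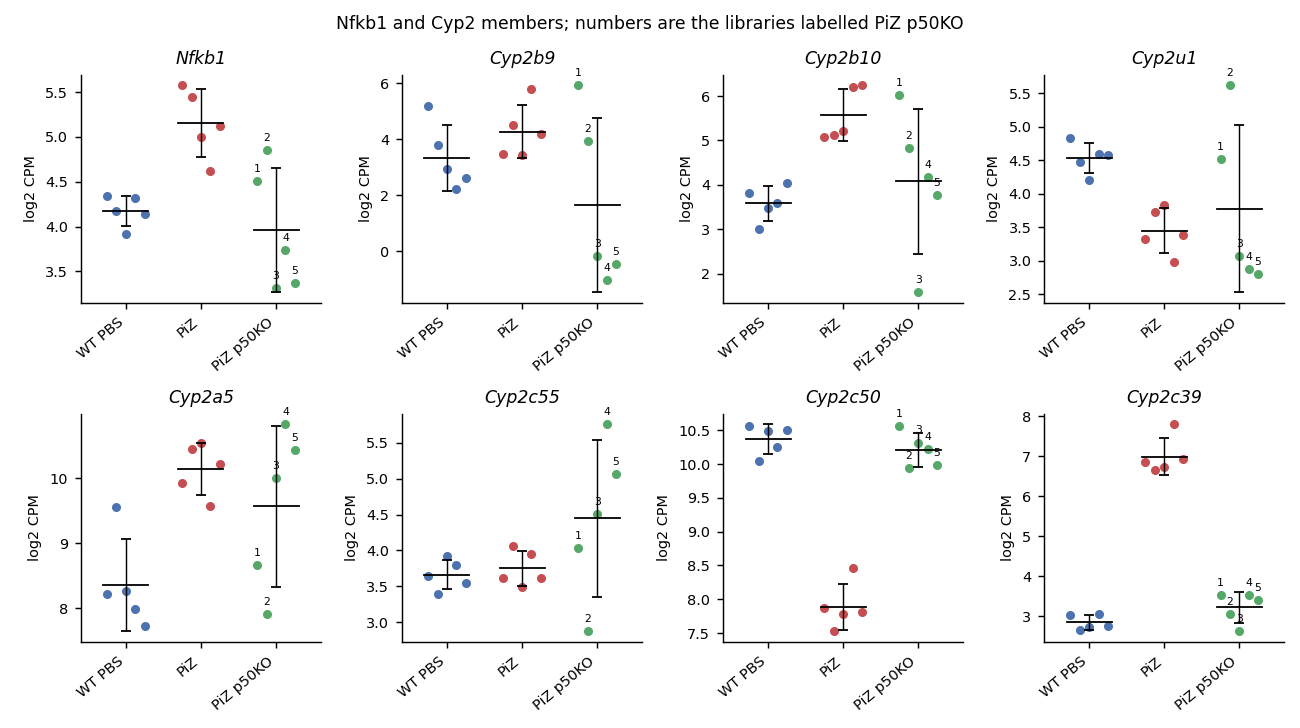
Log2 CPM (vertical axis) of Nfkb1 and 7 Cyp2 members in the WT PBS libraries without WT PBS 2, the PiZ libraries and the libraries labelled PiZ p50KO, numbered 1 to 5; black lines are means with SD. Libraries 1 and 2 lie apart from 3 to 5 in Nfkb1, Cyp2b9, Cyp2u1, Cyp2a5 and Cyp2c55, and with them in Cyp2c50 and Cyp2c39.

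Set directly against WT PBS, the PiZ p50KO livers had 1 called member over all libraries, and more without libraries 1 and 2. None of 35 members was lower (1.14% of all tested genes were, and 0 members by limma-voom) and 1 was higher (10.5% of all genes), Cyp2a4 by 1.36 ± 0.42 (adjusted p = 0.0406). At an unadjusted p under 0.05, 3 members were lower and 3 higher, beside 28.2% of all tested genes in either direction. The Cyp2a4 libraries overlapped, and the call was lost in 7 of 10 fits that left out 1 library (adjusted p 0.0556 to 0.123). Cyp2c39 was at 0.37 ± 0.20 and Cyp2c50 at −0.17 ± 0.15, neither past the test, and all differences but those of Cyp2a4, Cyp2a5 (1.22 ± 0.43) and Cyp2b9 (−1.71 ± 1.03) lay between −0.78 and 0.79. Without libraries 1 and 2, 3 members were lower (Cyp2b9 at −3.91, Cyp2u1 at −1.62, Cyp2c37 at −0.78) and 3 higher (Cyp2a4 at 2.11, Cyp2a5 at 2.07, Cyp2c55 at 1.45), where 2.86% of all genes fell and 15.4% rose. With equal medians 3 were lower, Cyp2d22, Cyp2d26 and Cyp2f2, and 0 higher (all genes 4.33% and 3.2%), and with WT PBS 2 in the fit none was called (0.00743% and 0.0817%).

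Among the regulators Nr1i3 rose against PiZ by 0.92 ± 0.28 (adjusted p = 0.0224) and Hlf by 0.77 ± 0.20, 2 of 21, with none lower. Cyb5b, which encodes a cytochrome b5, rose by 0.35 ± 0.11 of 6 partners, Cpox fell by 0.52 ± 0.12 of 11 heme genes, and Ghr rose by 0.27 ± 0.08 of 5 growth hormone genes. Of 21 other P450 genes 1 rose and 3 fell, the close relatives Cyp3a41a (−0.77 ± 0.26), Cyp3a44 (−0.67 ± 0.24) and Cyp3a11 (−0.63 ± 0.23). With equal medians these 3 and Cpox were no longer called (adjusted p 0.0826 to 0.301). Cyp2e1 rose by 0.98 ± 0.15 (adjusted p = 0.000145). Against WT PBS no partner, regulator, growth hormone or heme gene was called, and of the other P450 genes Cyp1b1 rose (1.74 ± 0.47, adjusted p = 0.052 with equal medians) and Cyp4f15 (−0.47 ± 0.11) and Cyp4v3 (−0.43 ± 0.12) fell. Macrophage markers summed to 299 to 536 CPM in PiZ p50KO and stellate cell and fibroblast markers to 206 to 420 CPM, with no overlap with PiZ, and 10 of 10 and 7 of 8 of them fell. Their part in the Cyp2 differences was not tested.

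At 2 h after TNFa no member passed the test. The counts were 0 lower and 0 higher of 35 (limma, adjusted p under 0.05), where 4.05% of all tested genes fell and 7.63% rose. At an unadjusted p under 0.05, 6 members were lower and 1 higher, beside 22.2% of all tested genes in either direction. Limma-voom called 0. The medians were −0.043 for the members and −0.016 for all genes. The genes that differed most in PiZ did not separate here: in the 6 TNFa libraries Cyp2c37 ran from 7.58 over a median of 8.12 to 8.46 log2 CPM, Cyp2c50 from 10.09 over 10.36 to 10.45, and Cyp2c39 from 2.76 over 3.10 to 3.22. All 3 ranges overlapped those of WT PBS, with differences of 0.01 ± 0.22, −0.04 ± 0.15 and 0.20 ± 0.19.

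The lowest 2 differences after TNFa were those of Cyp2c69 and Cyp2c40, which share 46.5% of the 50-base windows of Cyp2c69. Cyp2c69 ran from 0.13 over 2.32 to 3.79 log2 CPM (difference −1.45 ± 0.55, adjusted p = 0.0983) and Cyp2c40 from 2.21 over 3.90 to 4.98 (−1.20 ± 0.40, adjusted p = 0.0518). Their relatives Cyp2c67 and Cyp2c68 were at −0.81 ± 0.33 and −0.56 ± 0.25, and TNFa 1 was the lowest library in all 4 genes. Cyp2g1 was at −0.91 ± 0.55. Without TNFa 4, whose Nfkb1 level of 4.77 log2 CPM lay below the 6.57 to 6.95 of the other TNFa libraries, Cyp2c40 was called (−1.37, adjusted p = 0.0221), as was Cyp2c69 (−1.67, adjusted p = 0.0463); without TNFa 1 neither was (adjusted p = 0.134 and 0.246). Cyp2c40 was also the 1 member called with equal medians (adjusted p = 0.0473; all genes 6.18% lower and 7.42% higher), and with WT PBS 2 in the fit none was called (1.88% and 2.18%). The largest upward difference was that of Cyp2b13, 2.52 ± 1.07 (adjusted p = 0.153), with libraries from −0.78 to 4.09. The Cyp2d differences lay between 0.03 and 0.31, those of Cyp2a between −0.15 and −0.02, and Cyp2u1 was at −0.76 ± 0.39.

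Regulators did respond within the same 2 h. Of 21, 3 fell and 3 rose: Nr0b2, which encodes the repressor SHP, fell by 3.65 ± 0.70 (adjusted p = 0.00113), Cebpb rose by 1.66 ± 0.39 and Ppara fell by 1.18 ± 0.33. Hmox1 rose by 3.51 ± 0.47 (adjusted p = 3.57e-05), 1 of 11 heme genes, and Stat5a by 1.92 ± 0.33 of 5 growth hormone genes. No partner and no other P450 gene was called. Of 5 tested neutrophil markers 4 rose, their sum reaching 9.02 to 107 CPM against 2.56 to 20.8 in WT PBS, which overlap; their part was not tested. Cyp2e1 was at −0.25 ± 0.15 (adjusted p = 0.352).

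**Figure D4:**
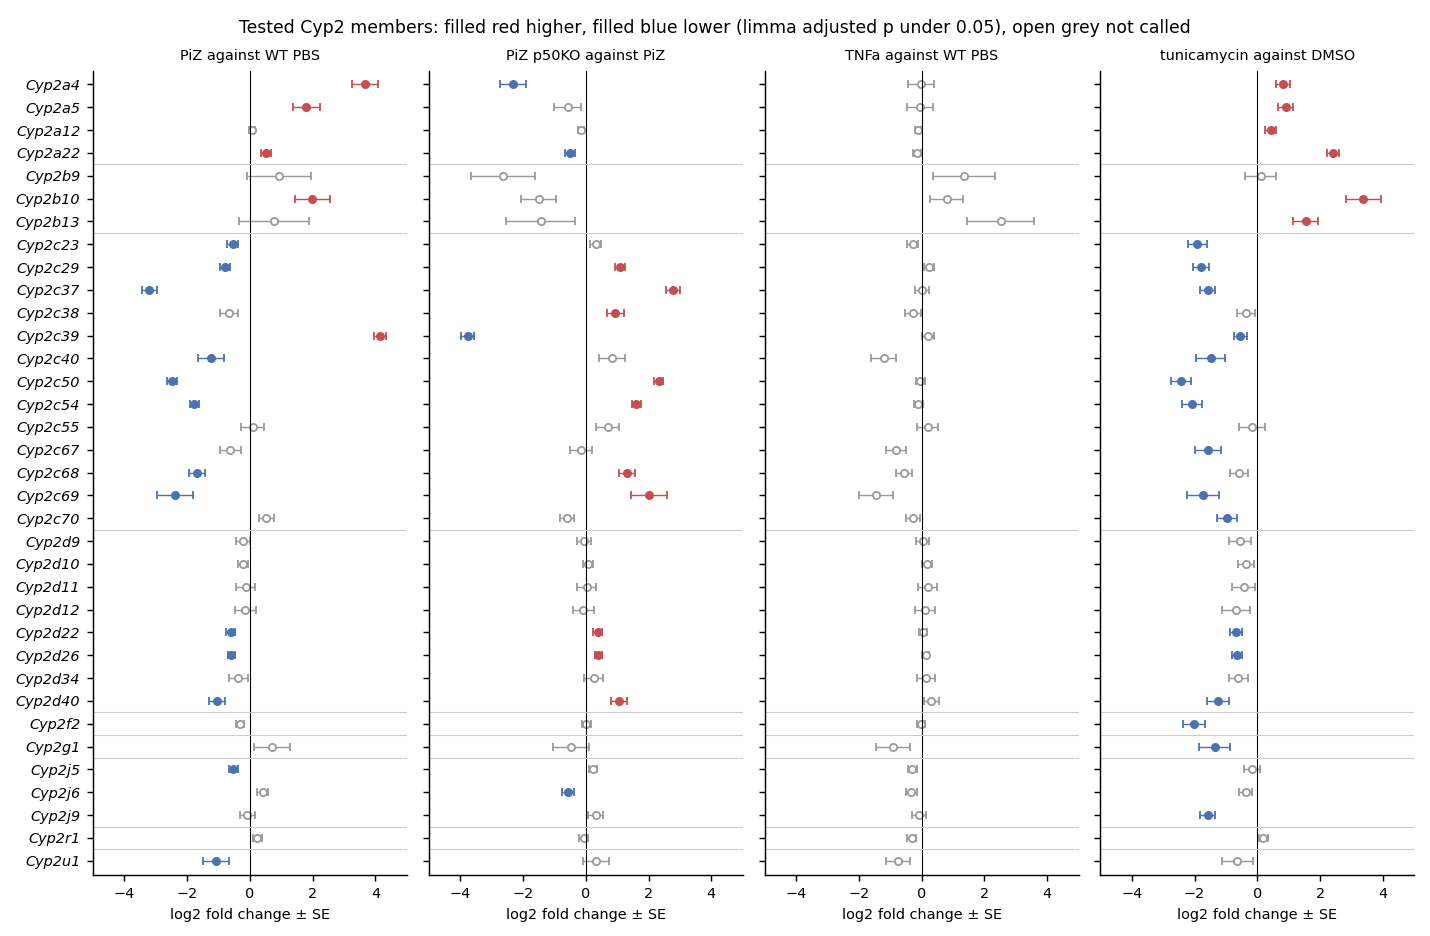
Log2 fold change with its SE (horizontal axis) of the 35 tested members in 4 comparisons, ordered by subfamily; filled red is higher, filled blue lower and open grey not called at an adjusted p under 0.05 (limma). Cyp2c39 is at 4.14 in PiZ against WT PBS and at −3.76 in PiZ p50KO against PiZ, which share the PiZ libraries, and no member is called after TNFa.

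Of the 5 comparisons, tunicamycin against DMSO gave the most called members: 16 of 35 fell and 6 rose, where 13.5% of the 13388 tested genes fell and 45.3% rose, and the medians were −0.609 for members and 0.383 for all genes. All 4 Cyp2a genes and 2 of 3 Cyp2b genes rose, and 10 of 13 Cyp2c genes fell. With equal medians 23 fell and 2, Cyp2a22 and Cyp2b10, rose (all genes 29.2% lower and 24.1% higher).

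**Figure D5:**
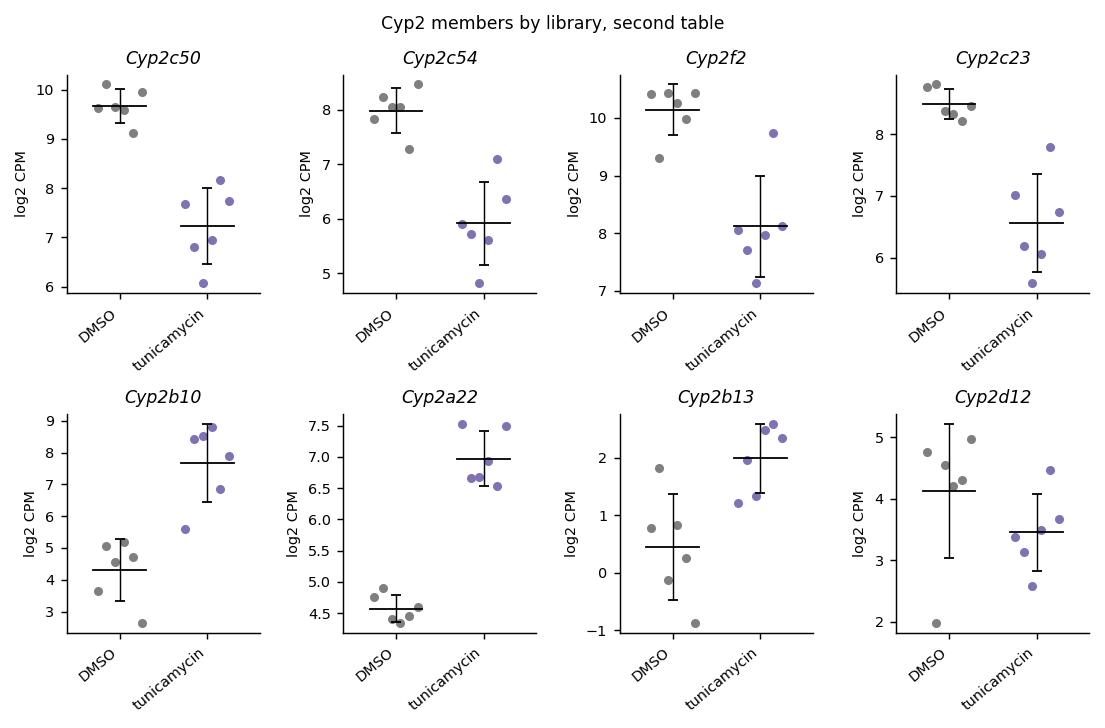
Log2 CPM (vertical axis) of 8 Cyp2 members in the 6 DMSO and 6 tunicamycin libraries; black lines are means with SD. Cyp2c50, Cyp2c54 and Cyp2c23 are lower and Cyp2b10 and Cyp2a22 higher in all tunicamycin libraries, and DMSO 2 is the lowest DMSO library for Cyp2d12.

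Cyp2b10 ran from 2.65 over a median of 4.63 to 5.19 log2 CPM in DMSO and from 5.61 over 8.15 to 8.80 in tunicamycin. The groups did not overlap, and the rise was 3.38 ± 0.55 (10.4-fold, adjusted p = 0.000228). Cyp2a22 ran from 4.35 over 4.52 to 4.90 and from 6.53 over 6.80 to 7.53, and rose by 2.40 ± 0.19 (adjusted p = 1.23e-06), also without overlap. Cyp2b13, a female-predominant gene of low level, ran from −0.87 over 0.52 to 1.83 and from 1.21 over 2.15 to 2.59, overlapped, and rose by 1.54 ± 0.40 (adjusted p = 0.00533). Cyp2a5 rose by 0.90 ± 0.24 and Cyp2a4 by 0.81 ± 0.23. Cyp2a12 was called at 0.42 ± 0.17, a value lost in 9 of 12 fits that left out 1 library and below 0 with equal medians (−0.028). Cyp2b9 was at 0.10 ± 0.49.

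Cyp2c50 ran from 9.11 over 9.63 to 10.10 log2 CPM in DMSO and from 6.07 over 7.31 to 8.17 in tunicamycin, a fall of 2.44 ± 0.31 (5.41-fold, adjusted p = 3.83e-05). Cyp2c54 ran from 7.28 over 8.05 to 8.47 and from 4.81 over 5.81 to 7.09 and fell by 2.07 ± 0.32 (adjusted p = 0.000138). Cyp2c23 ran from 8.21 over 8.41 to 8.80 and from 5.59 over 6.47 to 7.79 and fell by 1.92 ± 0.30 (adjusted p = 0.00017). None of these 3 overlapped between the groups, and tunicamycin 6 was the lowest library in each. Cyp2f2, expressed around the portal tract, ran from 9.31 over 10.33 to 10.43 and from 7.13 over 8.01 to 9.74, overlapped, and fell by 2.02 ± 0.35 (adjusted p = 0.000379). The overlap was between DMSO 2, at 9.31 against 9.99 to 10.43 in the other DMSO libraries, and tunicamycin b, at 9.74. Tunicamycin b is a library without a settled replicate number.

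The other Cyp2c genes that fell had differences of −1.80 ± 0.26 (Cyp2c29), −1.75 ± 0.51 (Cyp2c69), −1.59 ± 0.24 (Cyp2c37), −1.57 ± 0.42 (Cyp2c67), −1.49 ± 0.46 (Cyp2c40), −0.97 ± 0.31 (Cyp2c70) and −0.54 ± 0.21 (Cyp2c39). Cyp2c39, the gene that rose most in PiZ, was thus among the genes that fell here, at 2.68 to 3.10 log2 CPM in DMSO against 1.70 to 2.84; this call was lost in 6 of 12 fits that left out 1 library. Cyp2c38 (−0.38 ± 0.29), Cyp2c55 (−0.17 ± 0.42) and Cyp2c68 (−0.59 ± 0.30) were not called. Cyp2j9 fell by 1.59 ± 0.25 and the olfactory P450 gene Cyp2g1 by 1.37 ± 0.50, while Cyp2j5 (−0.18 ± 0.24), Cyp2j6 (−0.38 ± 0.21), Cyp2r1 (0.19 ± 0.14) and Cyp2u1 (−0.65 ± 0.49) were not called. The Cyp2g1 call was lost in 3 of 12 such fits.

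In the Cyp2d genes the result depended on 1 control library and on whether medians were set equal. Cyp2d40 fell by 1.26 ± 0.34, Cyp2d22 by 0.68 ± 0.20 and Cyp2d26 by 0.65 ± 0.17, and Cyp2d9, Cyp2d10, Cyp2d11, Cyp2d12 and Cyp2d34 were not called, at −0.68 to −0.36. DMSO 2 was the lowest DMSO library in all 8: Cyp2d12 stood at 1.99 log2 CPM there against 4.22 to 4.97 in the other 5, and Cyp2d9 at 7.94 against 9.59 to 10.29. It was also the lowest for Cyp2u1 (3.76 against 5.23 to 5.76). Tunicamycin b was the highest tunicamycin library in all 8 Cyp2d genes. Cyp2d9 stood at 9.93 there against 8.72 to 9.16 in the other tunicamycin libraries, and Cyp2d40 at 5.43 against 3.81 to 4.67. Without DMSO 2 all 8 Cyp2d genes were lower after tunicamycin (from −0.61 for Cyp2d10 to −1.55 for Cyp2d40, adjusted p 0.00014 to 0.0123). In that fit 20 members in all were lower, and the share of all genes was not counted. With equal medians and DMSO 2 kept all 8 were lower too (adjusted p 0.000222 to 0.0417). DMSO 2 was not low throughout, and for several other members it was the highest DMSO library. Cyp2c40 stood at 5.59 log2 CPM there against 3.12 to 5.10 in the others, and Cyp2c69 at 4.43 against 1.14 to 3.83. Without DMSO 2 their falls were smaller but still called, at −1.26 (adjusted p = 0.0279) and −1.44 (adjusted p = 0.0188). DMSO 2 also had the lowest summed hepatocyte and macrophage markers of the DMSO libraries (96870 and 218 CPM), whose part was not tested.

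Summed over members, Cyp2c transcripts were at 4040 ± 508 CPM (n = 6) after DMSO and 1332 ± 492 (n = 6) after tunicamycin, and Cyp2b transcripts at 51.2 ± 25.3 against 293 ± 144. Cyp2a transcripts were at 941 ± 162 against 1513 ± 199, and all members together at 9825 ± 1109 against 5983 ± 1256. Of these sums only that of Cyp2b overlapped between the groups. The 9 hepatocyte markers also summed to less after tunicamycin, 31700 to 81850 against 96870 to 144500 CPM, with 5 of 9 lower, and tunicamycin 6 was the lowest. Macrophage markers summed to 196 to 283 against 218 to 755 CPM, with 5 of 10 lower; the part of both lists in the Cyp2 differences was not tested. Of 20 tested regulators 6 fell and none rose, led by Nr0b2 (−1.62 ± 0.38), Nr1i3 (−1.59 ± 0.40, adjusted p = 0.00419) and Esr1 (−1.19 ± 0.29). Of 5 growth hormone genes 4 fell, led by Ghr (−1.90 ± 0.25, adjusted p = 4.7e-05), Onecut1 (−1.84 ± 0.59) and Stat5a (−0.93 ± 0.26). Of 6 partners Cyb5r3 (−1.0 ± 0.15) and Cyb5b (−0.79 ± 0.16) fell. Of 11 genes of heme metabolism 1 rose and 1 fell, and both calls held with equal medians. Urod, a gene of heme synthesis, was the gene that fell, by 0.37 ± 0.15. Of 20 other P450 genes 4 rose, led by Cyp4a14 (2.41 ± 0.80, adjusted p = 0.0558 with equal medians), and 6 fell, led by Cyp1a2 (−2.39 ± 0.38) and Cyp4a12b (−2.14 ± 0.40). Cyp2e1 fell by 1.64 ± 0.39 (adjusted p = 0.00277).

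PiZ against WT PBS and tunicamycin against DMSO share no library. The members lower in both were 10, which is 76.9% of the 13 lower in PiZ and 62.5% of the 16 lower after tunicamycin: Cyp2c23, Cyp2c29, Cyp2c37, Cyp2c40, Cyp2c50, Cyp2c54, Cyp2c69, Cyp2d22, Cyp2d26 and Cyp2d40. Over the 12547 genes tested in both tables the same shares were 50.5% and 23.3% (404 genes). Higher in both were Cyp2a4, Cyp2a5, Cyp2a22 and Cyp2b10, 80% of the 5 and 66.7% of the 6, against 52.6% and 51.2% of all genes. With equal medians only Cyp2b10 was higher in both, whereas the 10 lower in both remained among 16. At that setting 22.5% of all genes were lower in PiZ and 29.2% after tunicamycin, and 17.4% and 24.1% were higher. The overlap of all genes was not counted there, so the 16 have no share beside them. Cyp2c39 was called in both with opposite signs. Whether any member differed between the 2 conditions was not tested, since the tables are separate batches.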

How the data were processed

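Values are log2 CPM tables that the authors deposited, 1 per batch; per the submitters' processing notes, bcl2fastq, DRAGEN, STAR, Subread, featureCounts and edgeR were used with GRCm38, with no roles given. CPM was recovered by undoing the log2; the low values of every library came out as whole reads (100% within 0.1 read), so depth could be summed. Repeated rows of a gene (287 of 55774 in each table) held equal values and were dropped. Genes above 1 CPM in at least 5 libraries (first table, 13285 genes) or 6 (second, 13388) were tested with limma 3.58.1 (lmFit, eBayes with trend, two-sided) in R 4.3.3, all libraries of a table in 1 fit without WT PBS 2, with Benjamini-Hochberg adjustment over all tested genes and a threshold of 0.05. The fit was tested on simulated data. Differences are on the log2 CPM scale, which understates changes of low genes. Exon lengths and gene positions came from GENCODE M21 (GRCm38), and sums and sequences were computed in Python 3.11.15.

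The members and all lists were chosen with earlier results of these data known. Every tested member is named; values by library (in groups of 6 the lowest, median and highest) are given for the 4 called members that fell most and the 3 that rose most in a comparison, and for other genes chosen after their values were seen where libraries disagreed, and up to 3 called genes of each list are named. The alternatives were: WT PBS 2 kept, a pseudocount of 1 CPM, no filter, equal medians, only the groups compared, a replicate block, each library left out, PiZ p50KO 1 and 2 left out, and limma-voom, which was added after seeing the data.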

Additional observations from a re-analysis of the deposited data

Results flagged for a closer look

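In a group of 5 or 6 libraries, 1 library can stand apart from the others by more than Dixon's 95% critical value. Only groups of the called members that changed most in a comparison were examined, so no Cyp2d gene was among them. A library stood apart in 2 of the 37 groups examined, where chance would flag about 1.9. Both were in PiZ 4: Cyp2c39 at 7.797 log2 CPM against 6.653 to 6.916 in the other PiZ libraries, and Cyp2c37 at 5.482 against 4.618 to 4.843. Without PiZ 4 the difference of PiZ from WT PBS was 3.93 for Cyp2c39 (limma adjusted p = 1.44e-12) and −3.34 for Cyp2c37 (adjusted p = 2.75e-09).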

How the results depend on the processing

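The largest changes came from WT PBS 2 and from setting equal medians. With WT PBS 2 kept, PiZ against WT PBS gave 2 lower members, PiZ p50KO against PiZ 1 lower and 2 higher, and PiZ p50KO against WT PBS 0 higher; Cyp2c23 (0.11), Cyp2c29 (0.076), Cyp2d26 (0.048) and Cyp2j5 (0.28) changed sign in PiZ. With equal medians the counts were 20 lower in PiZ, 1 lower after TNFa, 2 lower in PiZ p50KO against PiZ, 3 lower and 0 higher against WT PBS, and 2 higher after tunicamycin; Cyp2a12 changed sign in PiZ (−0.42) and after tunicamycin (−0.028). Without PiZ p50KO 1 and 2 there were 6 higher against PiZ and 3 lower and 3 higher against WT PBS. The single call against WT PBS, Cyp2a4, gave 0 with no filter, with only the groups compared and by limma-voom. Leaving out 1 library at a time gave 12 to 14 lower and 5 to 6 higher in PiZ, 0 to 2 lower and 0 higher after TNFa, 3 to 5 lower and 7 to 10 higher in PiZ p50KO against PiZ, 0 to 1 lower and 0 to 3 higher against WT PBS, and 14 to 20 lower and 5 to 6 higher after tunicamycin. The causes were not tested.

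Replicate numbers were not used as pairs in the main fit. Same-numbered libraries correlated in their deviations from the group means at −0.178 to 0.564 for PiZ and WT PBS. There 2 of 4 correlated best with the library of their own number. For tunicamycin and DMSO the values were −0.081 to 0.131, with 1 of 3 best with its own number. In the remaining comparisons none was. With the replicate block there were 11 lower and 5 higher in PiZ, 5 lower and 9 higher in PiZ p50KO against PiZ, 0 lower and 1 higher against WT PBS (Cyp2c55 at 1.15, adjusted p = 0.0374, while Cyp2a4 had adjusted p = 0.0726), 0 after TNFa, and 18 lower and 3 higher after tunicamycin, where only numbers 1, 5 and 6 could be used. The share of all genes called was not counted for the replicate block or for the fits that left out 1 library. A pseudocount of 1 CPM left every count of called members within 1.5 times. edgeR and DESeq2 were planned but not run, since the deposited values are log2 CPM; limma-voom on the recovered reads, chosen after seeing the data, took their place. At this depth the 13 members below the filter were not tested, and reads shared between paralogs cannot be assigned.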
